A study of Mus musculus with 33 samples.

Results

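Interferon-stimulated genes are the genes that cells switch on after interferon binds its receptor, and 51 of them were followed here across livers that lacked or kept G6pc and that received a hairpin against ChREBP or a scrambled hairpin. The members were matched by gene name in the deposited normalized table, which held 45 of them under their own name, and by Ensembl identifier in the count table of 25988 genes, which held all 51. A minimum-count filter that kept 10179 genes kept 46 of the 51 members. Tgtp1, Oas1a, Oas1g, Mx1 and Gbp6 were below that filter and are described by their counts. In a fit without the filter Mx1 was called and the other 4 were not. All mice were male C57BL/6J carrying floxed G6pc and aged 13 to 18 weeks at infection. The L-G6pc-/- mice carried CreERT2 driven by the serum albumin promoter, which is active in hepatocytes, and the L-G6pc+/+ mice were Cre-negative littermates. Every mouse received tamoxifen and a self-complementary AAV2/8 vector with 1 shRNA under a U6 promoter, so that no group was free of vector or tamoxifen. The 33 liver libraries formed 4 groups, namely shChREBP/L-G6pc-/- (n = 9), shSCR/L-G6pc-/- (n = 8), shChREBP/L-G6pc+/+ (n = 8) and shSCR/L-G6pc+/+ (n = 8). Since 1 hairpin was used per target and Cre went with genotype, the effects of hairpin and knockdown, or of Cre and G6pc loss, cannot be told apart within these groups.

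Type I and type III interferons bind receptors that activate JAK kinases, which lead to a complex of STAT proteins with IRF9 that binds the interferon-stimulated response element (ISRE). Type II interferon leads to STAT dimers that bind the gamma-activated site (GAS). Cytosolic sensors of RNA and DNA can induce many of the same genes through IRF3 and IRF7. In liver, hepatocytes, macrophages and endothelial cells can all respond, and the induced proteins degrade viral RNA, block translation, trap virions, present antigen or attract leukocytes.

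The libraries held 1497843 to 3546852 counted tags (median 2141043). Mlxipl, which encodes ChREBP, was lower with shChREBP in L-G6pc-/- (-0.57, adjusted p = 0.00417) and L-G6pc+/+ livers (-0.55, adjusted p = 0.0129) on the log2 scale, at 216 to 500.4 CPM (median 441) in shChREBP/L-G6pc-/- against 514 to 633 CPM (median 578) in shSCR/L-G6pc-/- livers, and at 292 to 413 CPM (median 395) in shChREBP/L-G6pc+/+ against 449 to 612 CPM (median 528) in shSCR/L-G6pc+/+ livers. G6pc tags overlapped among all groups, with medians of 218, 276, 162 and 236 CPM in L-G6pc-/- livers with shChREBP and with shSCR and in L-G6pc+/+ livers with shChREBP and with shSCR, and since the floxed allele loses an internal exon while the tags come from the 3' end, this level does not test the deletion. The hepatocyte markers of the labelled tissue summed to 16220 CPM or more in each library. Within shChREBP/L-G6pc-/-, the libraries numbered s29, s30, s32 and s33 stood apart on the first principal component of all tested genes (26.2% of the variance within the group, scores of 15.2 to 28.01 against -22.4 to -8.21). They held 216 to 359 CPM of Mlxipl against 441 to 500.4 CPM in the other 5. They are called the set-apart libraries. Many calls resting on this group are also given without them. Where no such value is given, the call may not have held.

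The ISRE can be looked for in the promoters of the members. Sequences are those of RefSeq on GRCm38.p6, written 5' to 3' in the direction of the gene and ending at the base before the start site. The Ifit3 and Ifit3b promoters are shown because these neighbours on chromosome 19 were both called higher with shChREBP in L-G6pc-/- livers, and the Isg15, Ifit1 and Cxcl10 promoters because these genes had some of the largest changes. Capitals mark the ISRE core, searched as GAAANNGAAA on both strands, so that its reverse complement is seen where it lies on the opposite strand.
Ifit3 promoter (chr19:34583279-34583528, + strand): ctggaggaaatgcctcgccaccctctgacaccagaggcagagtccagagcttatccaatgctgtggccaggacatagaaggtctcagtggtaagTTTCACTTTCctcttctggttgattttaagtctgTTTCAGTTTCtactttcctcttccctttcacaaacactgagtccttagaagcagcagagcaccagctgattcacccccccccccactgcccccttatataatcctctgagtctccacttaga
Ifit3b promoter (chr19:34607707-34607956, + strand): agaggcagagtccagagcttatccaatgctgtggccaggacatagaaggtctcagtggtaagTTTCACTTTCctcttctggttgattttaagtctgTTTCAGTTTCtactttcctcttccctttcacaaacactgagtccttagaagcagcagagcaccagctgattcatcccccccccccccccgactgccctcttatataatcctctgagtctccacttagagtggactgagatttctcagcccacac
Ifit1 promoter (chr19:34640639-34640888, + strand): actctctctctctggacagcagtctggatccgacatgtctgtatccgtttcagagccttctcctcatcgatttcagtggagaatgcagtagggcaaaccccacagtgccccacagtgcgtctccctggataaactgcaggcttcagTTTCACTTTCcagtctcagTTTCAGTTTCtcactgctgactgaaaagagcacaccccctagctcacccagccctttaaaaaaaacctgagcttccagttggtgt
Isg15 promoter (chr4:156200819-156201068, - strand): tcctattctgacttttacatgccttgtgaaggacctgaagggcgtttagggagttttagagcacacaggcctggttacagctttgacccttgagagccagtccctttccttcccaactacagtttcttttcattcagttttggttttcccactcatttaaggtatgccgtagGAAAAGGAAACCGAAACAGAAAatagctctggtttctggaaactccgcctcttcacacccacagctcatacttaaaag
Cxcl10 promoter (chr5:92348890-92349139, - strand): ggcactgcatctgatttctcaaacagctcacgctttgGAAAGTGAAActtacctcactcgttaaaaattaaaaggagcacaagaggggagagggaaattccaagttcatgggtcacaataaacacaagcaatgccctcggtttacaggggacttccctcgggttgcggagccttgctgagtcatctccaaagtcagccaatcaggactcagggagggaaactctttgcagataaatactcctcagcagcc
The Ifit3 and Ifit3b windows shared an identical run of 169 bases that holds a pair of ISRE cores, at -156 and -122 from the Ifit3 start and at -188 and -154 from the Ifit3b start. The Isg15 promoter held 3 overlapping cores that began at -78, -72 and -66. In Ifit1 the cores began at -104 and -85, and in Cxcl10 a single one began at -213.

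The next windows show the core with its neighbouring bases in further members with results below, each written along the strand on which the motif reads GAAA first. They comprise an RNA sensor pair, a tetherin, a guanylate-binding protein and a pair of immunity-related GTPases.
Ddx58 (chr4:40239804-40239833): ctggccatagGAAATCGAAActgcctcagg
Ifih1 (chr2:62646206-62646233): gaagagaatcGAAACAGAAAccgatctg
Bst2 (chr8:71537580-71537609): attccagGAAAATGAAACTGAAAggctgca
Gbp3 (chr3:142559992-142560021): gatctggGAAATAGAAACTGAAActgtgtc
Irgm1 (chr11:48871428-48871457): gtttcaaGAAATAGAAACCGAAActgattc
Igtp (chr11:58199512-58199541): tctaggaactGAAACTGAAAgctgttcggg
Of 39 members with a RefSeq window of 250 bases before to 50 bases after the start, 20 (51.3%) held the ISRE core, against 3.99% of 27025 genes with such a window. The GAS motif, searched as TTCNNNGAA on both strands, was found in 11 of the 39 (28.2%) against 9.55% of all genes. A match is a description of letters and not of binding. For shChREBP in L-G6pc-/- livers, 6 of 17 tested members with the ISRE core and 7 of 19 without it were called higher. Their median log2 fold changes in that comparison were 0.52 and 0.51.

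**Figure D1:**
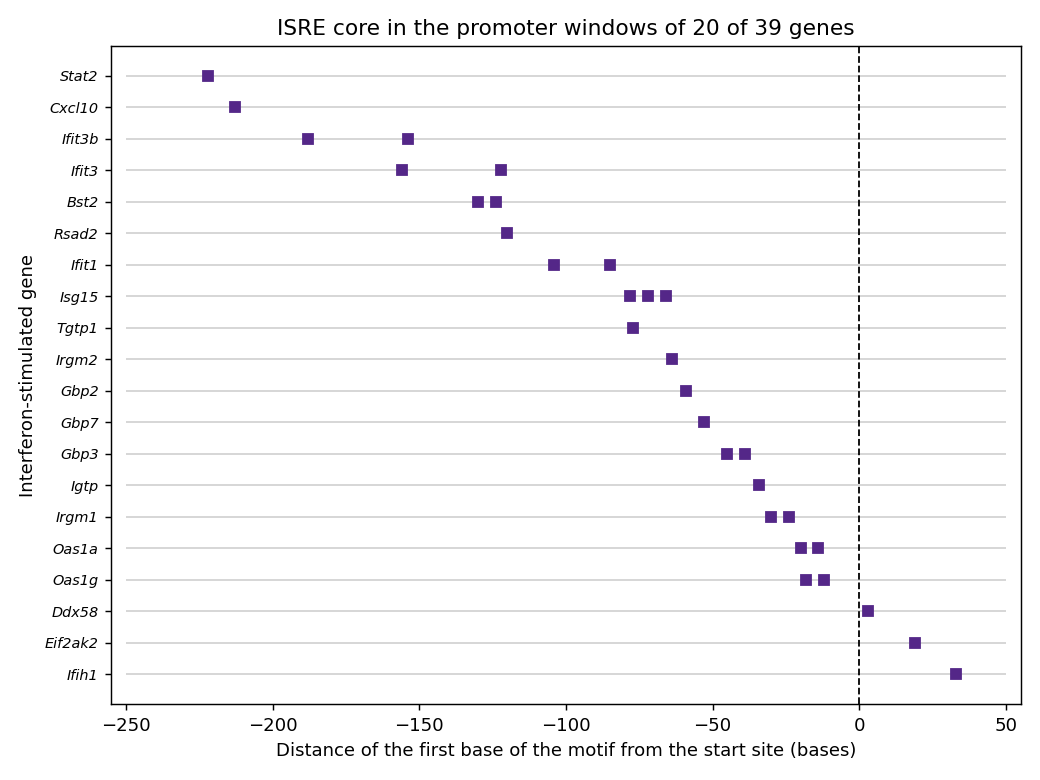
Position of each ISRE core (square) relative to the start site in the RefSeq windows of the 20 members that hold one, with the horizontal axis in bases from 250 before to 50 after the start and the dashed line at the start. Cores lie between -222 (Stat2) and 33 (Ifih1), and Isg15 has 3 side by side.

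In L-G6pc-/- livers, 18 of the 46 tested members were higher with shChREBP than with shSCR and none was lower. Among all 10179 genes 3.33% were called higher and 7.56% in either direction. A gene was called where the adjusted p of edgeR's quasi-likelihood test (Benjamini-Hochberg over all tested genes, two-sided) was under 0.05. The median log2 fold change of the tested members was 0.51, beside 0.01 over all genes, and 45 of the 46 were positive. Scaling by library size alone moved the median of all genes to 0.11, and the members' median relative to it stayed at 0.51. With that scaling 27 members were called higher, and the share of higher among all called genes was 75.8% instead of 44.0%. With the set-apart libraries left out the calls numbered 2 (Cxcl10 and Ifit3b), all 18 called members stayed positive and the members' median was 0.34. Calls over all genes then fell too, to 106 of 10399 with 36 higher, against 770 of 10179 with 339 higher. Leaving out 1 library at a time gave between 12 calls (without s32) and 24 (without s31), and 12 of the 18 were called whichever library was left out.

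In L-G6pc+/+ livers, 4 members were higher with shChREBP (Zbp1, Lgals3bp, Irgm1 and Irf1), where 2.16% of all genes were called higher and 5.39% in either direction. The median of the tested members was 0.33, beside 0.03 over all genes, and 41 were positive. Between shSCR/L-G6pc-/- and shSCR/L-G6pc+/+ livers, 3 members were higher (Usp18, Lgals3bp and Gbp3), beside 2.20% of all genes called higher and 3.23% called in either direction. Their median was 0.35 (0.23 without s20) and 43 were positive. No member was called lower in either comparison.

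The group with both changes stood highest. Of the 46 tested members, 36 were higher in shChREBP/L-G6pc-/- than in shSCR/L-G6pc+/+ livers, where 6.87% of all genes were called higher and 13.2% in either direction, and the members' median was 0.86 with all 46 positive. In 8 of them every shChREBP/L-G6pc-/- library lay above every shSCR/L-G6pc+/+ library (Irf7, Ifit1, Ifit3, Isg15, Usp18, Herc6, Ifi44 and Lgals3bp), which was so for 0.756% of all genes. Between shChREBP/L-G6pc-/- and shChREBP/L-G6pc+/+ livers 18 were higher, beside 6.14% of all genes called higher and 11% called in either direction. These counts were 18 and 10 without the set-apart libraries. A genotype difference in the response to shChREBP was called for 1 member, Ifit3b, beside 0.0589% of all genes called higher and 0.0786% in either direction. These comparisons share groups, so their counts are not independent of each other.

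**Figure D2:**
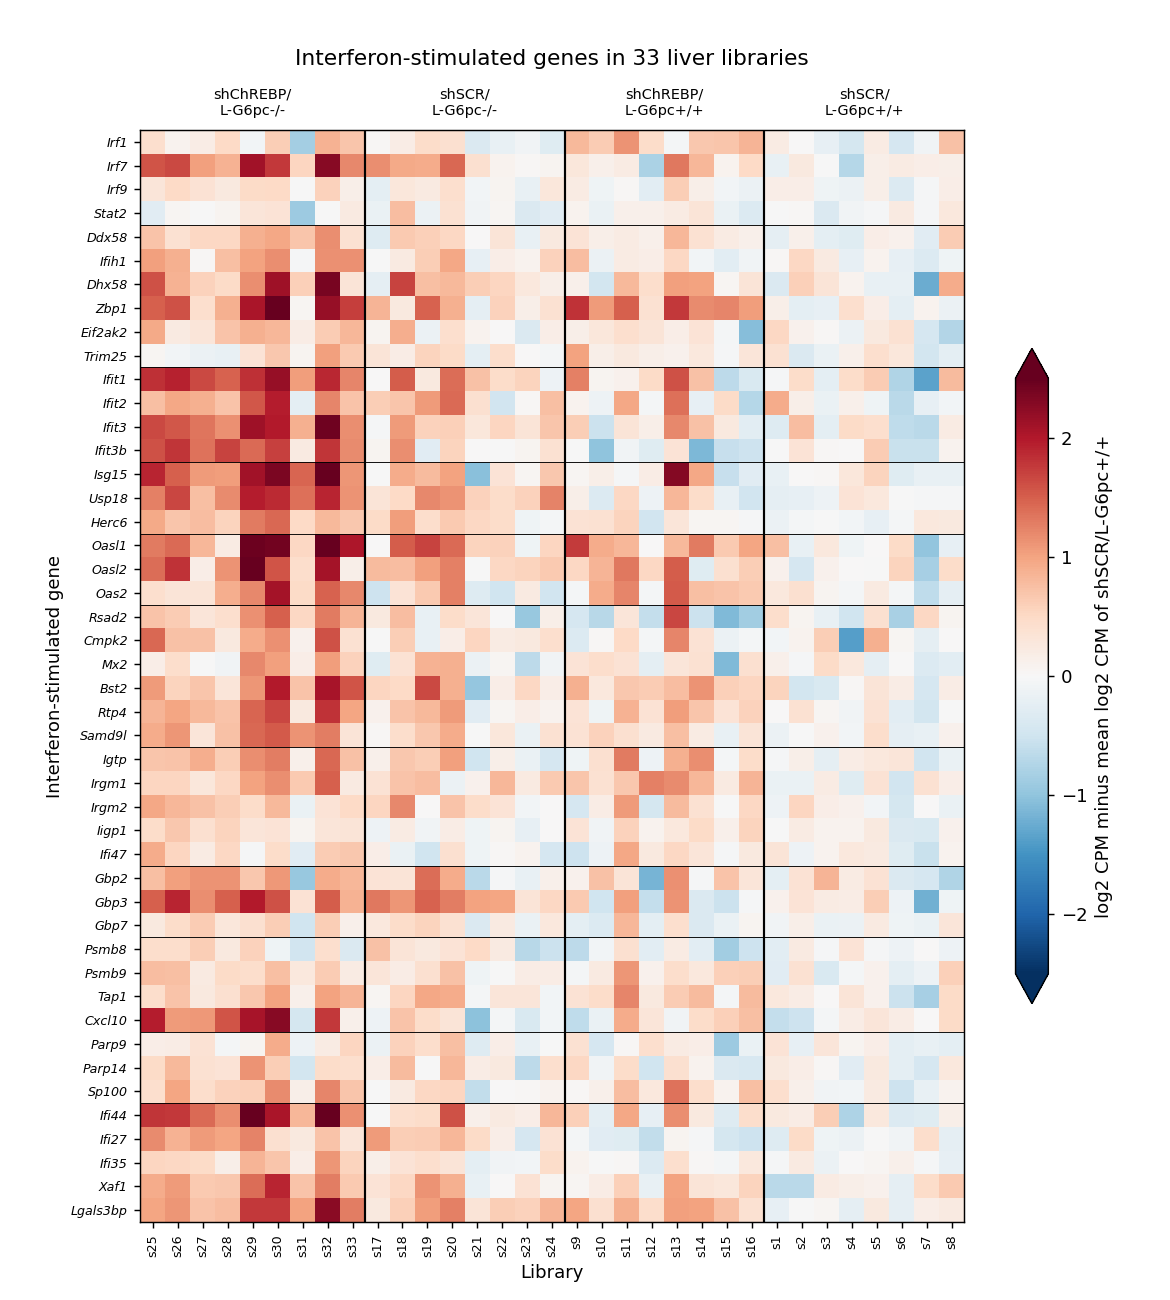
Log2 CPM of the 46 tested members (rows, grouped by role with thin lines) in the 33 libraries (columns, grouped), as the difference from the mean of the shSCR/L-G6pc+/+ libraries, with red above and blue below that mean. Red is deepest in s29, s30 and s32 of shChREBP/L-G6pc-/-, and the libraries s20 of shSCR/L-G6pc-/- and s13 of shChREBP/L-G6pc+/+ also stand out within their groups.

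Among the transcription factors of the response, Irf7, the factor that amplifies type I interferon production, was called and Stat2 was not. Irf7 (chr7:141262706-141266481) ranged over 40.6, 83.9 and 138 CPM (lowest, median and highest library) in shChREBP/L-G6pc-/- livers, against 28.4, 45.0 and 76.0 CPM in shSCR/L-G6pc-/- livers. In L-G6pc+/+ livers it stood at 15.6, 32.9 and 70.6 CPM with shChREBP and at 16.5, 30.9 and 32.9 CPM with shSCR. The groups overlapped within each genotype, but all 9 shChREBP/L-G6pc-/- libraries lay above the highest shSCR/L-G6pc+/+ library. Its log2 fold change with shChREBP was 0.84 (SE 0.23, adjusted p = 0.0196) in L-G6pc-/- livers and 0.41 (SE 0.25, adjusted p = 0.354) in L-G6pc+/+ livers. The call in L-G6pc-/- livers was lost when s29 or s32 was left out (adjusted p up to 0.0577). Leaving out the set-apart libraries together gave 0.49 (adjusted p = 0.452).

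Irf1, a factor that is also induced through GAS elements, was not called in L-G6pc-/- livers. It ranged over 67.4, 163 and 223 CPM in shChREBP/L-G6pc-/- against 94.6, 119 and 167 CPM in shSCR/L-G6pc-/- livers, which overlap widely, and did not pass the test (0.30, SE 0.18, adjusted p = 0.324). In L-G6pc+/+ livers it rose to 117, 196 and 267 CPM with shChREBP, against 89.5, 118 and 204 CPM with shSCR. This log2 fold change of 0.64 (SE 0.18, adjusted p = 0.0337) was lost when s2, s3, s4, s6, s7, s9, s11, s15 or s16 was left out (adjusted p up to 0.075), and Irf1 is named here after its values were seen. Irf9, the DNA-binding partner of the STATs, had medians of 107, 92.2, 82.3 and 87.3 CPM in L-G6pc-/- livers with shChREBP and with shSCR and in L-G6pc+/+ livers with shChREBP and with shSCR and was called only in shChREBP/L-G6pc-/- against shSCR/L-G6pc+/+ (0.35, adjusted p = 0.033). That call was lost without s3, s4, s6, s7, s26, s29, s30 or s32 (adjusted p up to 0.0828). Stat2, the other partner, had medians of 23.5, 20.95, 24.5 and 22.5 CPM in the same order and log2 fold changes between -0.07 and 0.06 over the 6 comparisons.

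The sensors of foreign nucleic acid gave the member with the largest response to shChREBP in L-G6pc+/+ livers, Zbp1. Zbp1, which binds Z-form nucleic acid and can start necroptosis, ranged over 5.86, 18.8 and 36.8 CPM in shChREBP/L-G6pc-/- against 4.66, 8.21 and 17.3 CPM in shSCR/L-G6pc-/- livers. In L-G6pc+/+ livers the values were 7.53, 14.01 and 21.8 CPM with shChREBP against 4.57, 5.53 and 7.78 CPM with shSCR. Of the shChREBP/L-G6pc-/- libraries 6 of 9 lay above every shSCR/L-G6pc-/- library, and of the shChREBP/L-G6pc+/+ libraries 7 of 8 lay above every shSCR/L-G6pc+/+ library. The log2 fold changes were 1.08 (SE 0.27, adjusted p = 0.00881) and 1.39 (SE 0.29, adjusted p = 0.00426). They differed by -0.32, which was not called (adjusted p = 0.804). The first value was 0.45 without the set-apart libraries (adjusted p = 0.552).

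Ddx58 and Ifih1, which encode the RNA sensors RIG-I and MDA5, had smaller differences. Ddx58 (chr4:40203773-40239828) ranged over 36.05, 45.4 and 63.0 CPM in shChREBP/L-G6pc-/- against 21.8, 33.8 and 44.0 CPM in shSCR/L-G6pc-/- livers, and 5 of 9 libraries lay above the highest shSCR/L-G6pc-/- library. Its log2 fold change of 0.46 (SE 0.15, adjusted p = 0.0462) lay near the threshold and lost its call without any 1 of 16 libraries, namely s2, s5, s10, s11, s14, s15, s17, s21, s22, s23, s24, s25, s29, s30, s31 and s32 (adjusted p up to 0.112). It was 0.32 without the set-apart libraries (adjusted p = 0.459). Ifih1 was at 24.9, 51.6 and 57.8 CPM in shChREBP/L-G6pc-/- livers, against 21.98, 29.1 and 50.5 CPM in shSCR/L-G6pc-/-, 20.8, 26.2 and 43.7 CPM in shChREBP/L-G6pc+/+ and 19.7, 24.8 and 36.5 CPM in shSCR/L-G6pc+/+ livers. It was called against shChREBP/L-G6pc+/+ (0.71, SE 0.17, adjusted p = 0.00616) and shSCR/L-G6pc+/+ livers (0.86, SE 0.17, adjusted p = 0.000766) and not against shSCR/L-G6pc-/- livers (0.52, SE 0.17, adjusted p = 0.0575). These calls were lost without the set-apart libraries (0.48, adjusted p = 0.131, and 0.61, adjusted p = 0.0839). Dhx58, the related helicase LGP2, was low, with medians of 7.36, 5.80, 4.98 and 3.49 CPM in L-G6pc-/- livers with shChREBP and with shSCR and in L-G6pc+/+ livers with shChREBP and with shSCR, and was called in shChREBP/L-G6pc-/- against shSCR/L-G6pc+/+ (1.38, SE 0.33, adjusted p = 0.00422), with 0.92 without the set-apart libraries (adjusted p = 0.151). It overlaps an antisense gene, and the sources used here do not say whether tags were counted by strand. Eif2ak2, the translation-blocking kinase PKR, had a value of 0.61 in that comparison (adjusted p = 0.0226), lost without s7 or s8 (adjusted p up to 0.0565). Trim25, a ubiquitin ligase of the RIG-I pathway, was called nowhere (log2 fold changes of -0.17 to 0.29).

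The IFIT genes, whose proteins bind viral RNA and block its translation, were called higher with shChREBP in L-G6pc-/- livers for 3 of 4 members. Ifit3 (chr19:34583531-34588731) was at 34.7, 55.5 and 103 CPM in shChREBP/L-G6pc-/- livers, against 17.8, 27.3 and 39.1 CPM in shSCR/L-G6pc-/- livers, and 8 of 9 libraries lay above the highest shSCR/L-G6pc-/- library. Its L-G6pc+/+ values were 12.3, 22.5 and 43.3 CPM with shChREBP, against 11.1, 18.3 and 31.97 CPM with shSCR, and these groups overlapped. The log2 fold changes were 1.16 (SE 0.22, adjusted p = 0.000842) and 0.31 (SE 0.24, adjusted p = 0.492). They differed by 0.85, which was not called (adjusted p = 0.286). In L-G6pc-/- livers Ifit3 had 0.83 without the set-apart libraries (adjusted p = 0.0766).

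Ifit3b (chr19:34607970-34613401), the neighbouring copy, gave the only called difference between genotypes in the response to shChREBP. It was at 17.1, 45.8 and 52.6 CPM in shChREBP/L-G6pc-/- livers, against 11.7, 15.3 and 33.7 CPM in shSCR/L-G6pc-/- livers. In L-G6pc+/+ livers the values were 6.14, 10.8 and 18.5 CPM under shChREBP against 9.59, 14.7 and 23.1 CPM under shSCR. Only s31 of shChREBP/L-G6pc-/-, at 17.1 CPM, lay inside the range of the other groups. With shChREBP its log2 fold change was 1.21 (SE 0.21, adjusted p = 0.000203) in L-G6pc-/- livers and -0.45 (SE 0.24, adjusted p = 0.278) in L-G6pc+/+ livers. The difference of 1.65 (SE 0.32) passed its test (adjusted p = 0.0181), held without s29, s30, s32 and s33 (1.61, adjusted p = 0.0272) and was lost without s5 (adjusted p = 0.057). The ratio of Ifit3b to Ifit3 CPM per library had medians of 0.774, 0.657, 0.524 and 0.848 in L-G6pc-/- livers with shChREBP and with shSCR and in L-G6pc+/+ livers with shChREBP and with shSCR.

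Besides the promoter run shown above, part of the Ifit3 3' end also occurs in the Ifit3b transcript, outside its last 500 bases. Of the 50-base windows in the last 500 bases of Ifit3, 14.9% also occur in the Ifit3b transcript, and reads from them match both copies. For Ifit3b 1.77% of such windows occur in other genes, none of them Ifit3. Ifit1 had 14.2, 25.1 and 32.4 CPM in shChREBP/L-G6pc-/- against 5.84, 9.57 and 20.03 CPM in shSCR/L-G6pc-/- livers (1.04, SE 0.28, adjusted p = 0.0143), and all shChREBP/L-G6pc-/- libraries lay above the highest shSCR/L-G6pc+/+ library at 11.8 CPM. Its value was 0.95 without the set-apart libraries (adjusted p = 0.167). Ifit2 was the uncalled one in L-G6pc-/- livers (0.46, SE 0.29, adjusted p = 0.369). It was called in shChREBP/L-G6pc-/- against shSCR/L-G6pc+/+ livers (1.11, SE 0.30, adjusted p = 0.0112), where it had 0.69 without the set-apart libraries (adjusted p = 0.321).

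**Figure D3:**
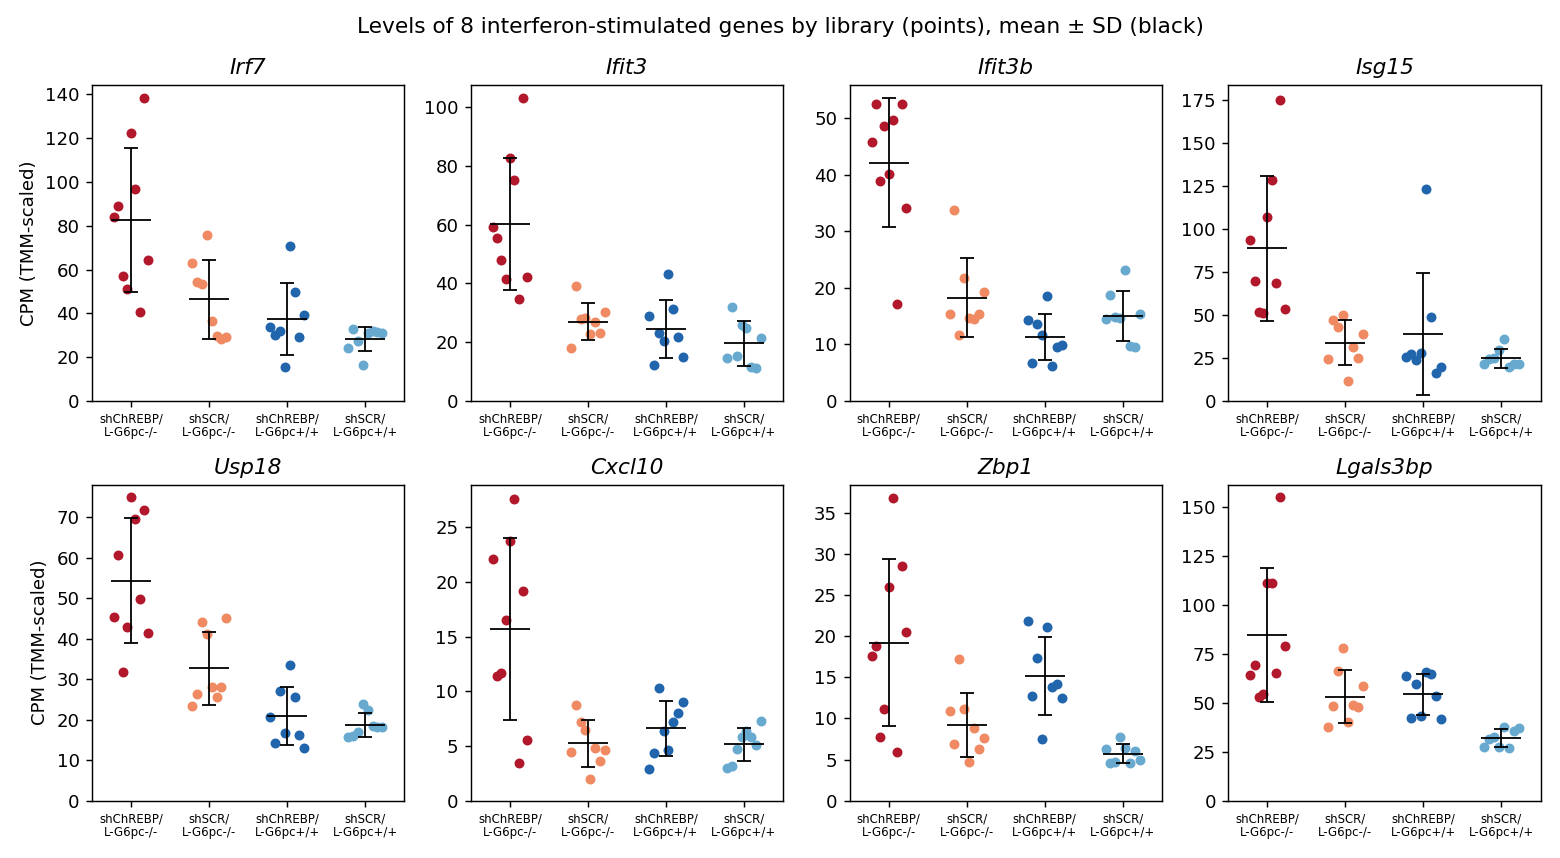
TMM-scaled CPM of 8 members in each library (points), by group from shChREBP/L-G6pc-/- to shSCR/L-G6pc+/+, with the mean ± SD in black on axes that start at 0. For Isg15 all shChREBP/L-G6pc-/- points lie above the shSCR/L-G6pc-/- points, with 51.3 CPM as the lowest of these points and 50.04 CPM as the highest of the shSCR ones, while s13 of shChREBP/L-G6pc+/+ reaches 124 CPM.

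The ISG15 system conjugates the ubiquitin-like protein ISG15 to other proteins. Isg15 was the only one of the 46 tested members whose shChREBP/L-G6pc-/- libraries all lay above the shSCR/L-G6pc-/- libraries. The share of all genes with such a separation was not computed for this comparison. Isg15 (chr4:156199424-156200818) was at 51.3, 69.9 and 175 CPM in shChREBP/L-G6pc-/- livers, against 11.3, 35.2 and 50.04 CPM in shSCR/L-G6pc-/- livers. In L-G6pc+/+ livers it was at 16.1, 26.2 and 124 CPM with shChREBP against 19.7, 23.01 and 36.2 CPM with shSCR, and the highest of these was the single library s13. The log2 fold changes were 1.39 (SE 0.31, adjusted p = 0.00369) and 0.64 (SE 0.33, adjusted p = 0.258). The first was 0.98 without the set-apart libraries (adjusted p = 0.156).

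Usp18, the protease that removes ISG15 and also dampens receptor signalling, was higher with shChREBP in L-G6pc-/- livers and in L-G6pc-/- than in L-G6pc+/+ livers with shSCR. It was at 31.7, 49.8 and 74.9 CPM in shChREBP/L-G6pc-/- against 23.3, 27.96 and 45.0 CPM in shSCR/L-G6pc-/- livers, beside 15.6, 18.2 and 23.8 CPM in shSCR/L-G6pc+/+ livers. In shChREBP/L-G6pc+/+ livers it was at 13.0, 18.8 and 33.5 CPM. The log2 fold change with shChREBP was 0.74 (SE 0.17, adjusted p = 0.00582) in L-G6pc-/- livers and 0.15 (SE 0.20, adjusted p = 0.717) in L-G6pc+/+ livers, and their difference of 0.59 was not called (adjusted p = 0.351). The L-G6pc-/- value was 0.52 without the set-apart libraries (adjusted p = 0.211). Between shSCR/L-G6pc-/- and shSCR/L-G6pc+/+ livers it was 0.80 (SE 0.19, adjusted p = 0.0107), with 7 of 8 libraries above the highest shSCR/L-G6pc+/+ library. Herc6, the ISG15 ligase of mice, had medians of 23.3, 18.6, 15.2 and 12.8 CPM in L-G6pc-/- livers with shChREBP and with shSCR and in L-G6pc+/+ livers with shChREBP and with shSCR. It was called in shChREBP/L-G6pc-/- against shChREBP/L-G6pc+/+ (0.74, SE 0.16, adjusted p = 0.00179) and against shSCR/L-G6pc+/+ livers (0.93, SE 0.16, adjusted p = 7.32e-05), and both calls held without the set-apart libraries (0.55, adjusted p = 0.0349, and 0.74, adjusted p = 0.0086).

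OAS proteins make the messenger that activates RNase L, and the OAS-like proteins act beside them. Oasl1 was at 8.10, 19.9 and 45.8 CPM in shChREBP/L-G6pc-/-, 6.31, 10.7 and 24.5 CPM in shSCR/L-G6pc-/-, 6.95, 13.5 and 25.3 CPM in shChREBP/L-G6pc+/+ and 3.03, 6.64 and 12.3 CPM in shSCR/L-G6pc+/+ livers. Oasl2 had medians of 10.3, 6.10, 5.41 and 3.55 CPM in that order. Both passed the test in shChREBP/L-G6pc-/- against shSCR/L-G6pc+/+ livers (1.77, SE 0.32, adjusted p = 0.000203 and 1.65, SE 0.32, adjusted p = 0.000409) and in no other comparison. In the fit without the filter Oasl1 was also called with shChREBP in L-G6pc-/- livers. Oasl1 had 0.90 (adjusted p = 0.113) and Oasl2 1.26 (adjusted p = 0.0146) without the set-apart libraries. Oas2 was at 7.72, 12.2 and 28.4 CPM in shChREBP/L-G6pc-/- against 3.96, 5.94 and 15.8 CPM in shSCR/L-G6pc-/- livers (0.91, SE 0.28, adjusted p = 0.0378). This call was lost without any 1 of s17, s18, s21, s22, s23, s24, s29, s30, s32 and s33 (adjusted p up to 0.128), and the value was 0.33 without the last 4 (adjusted p = 0.734).

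Of the other antiviral effectors, Bst2, Rtp4 and Samd9l were each called in at least 1 comparison. Bst2, which encodes tetherin, ranged over 668, 1135 and 2256 CPM in shChREBP/L-G6pc-/- livers and 274, 767 and 1706 CPM in shSCR/L-G6pc-/- livers. In shChREBP/L-G6pc+/+ livers it was at 646, 848 and 1179.5 CPM, against 390.5, 580.2 and 796 CPM in shSCR/L-G6pc+/+ livers. Its call in shChREBP/L-G6pc-/- against shSCR/L-G6pc+/+ livers (1.201, SE 0.24, adjusted p = 0.000737) was lost without s29, s30, s32 and s33 (0.65, adjusted p = 0.132). Rtp4, an inhibitor of viral replication, was at 41.5, 69.9 and 124 CPM in shChREBP/L-G6pc-/- against 28.6, 38.4 and 73.7 CPM in shSCR/L-G6pc-/- livers (0.74, SE 0.19, adjusted p = 0.0116). Samd9l, which restricts poxviruses, was at 11.01, 19.9 and 27.2 CPM against 7.66, 11.3 and 17.6 CPM in the same groups (0.72, SE 0.18, adjusted p = 0.00875). These were 0.35 (adjusted p = 0.497) and 0.55 (adjusted p = 0.158) without the set-apart libraries.

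Rsad2, which encodes viperin, and its neighbour Cmpk2 had values of 0.71 (adjusted p = 0.114) and 0.68 (adjusted p = 0.0774) with shChREBP in L-G6pc-/- livers. Rsad2 reached 301 CPM in s13 of shChREBP/L-G6pc+/+, above the highest shChREBP/L-G6pc-/- library at 267 CPM. Its calls in shChREBP/L-G6pc-/- against shChREBP/L-G6pc+/+ (0.86, adjusted p = 0.0408) and against shSCR/L-G6pc+/+ livers (0.81, adjusted p = 0.0459) were lost without single libraries, the first without s9, s10, s12, s14, s15, s16, s29, s30 or s32 (adjusted p up to 0.0915) and the second without s2, s3, s4, s6, s8, s17, s20, s22, s24, s25, s29, s30, s32 or s33 (adjusted p up to 0.108). Cmpk2 was called in shChREBP/L-G6pc-/- against shSCR/L-G6pc+/+ livers (0.81, adjusted p = 0.0191), and this was lost without s32 (adjusted p = 0.0602). Mx2, annotated as a polymorphic pseudogene, was called nowhere. Mx1, whose coding sequence is defective in C57BL/6 mice, was below the filter, with 73 tags in all over the 9 shChREBP/L-G6pc-/- libraries and at least 1.37 CPM in each, against 4 tags over the 8 shSCR/L-G6pc-/- libraries, 16 over the shChREBP/L-G6pc+/+ and 14 over the shSCR/L-G6pc+/+ libraries. Every shChREBP/L-G6pc-/- library lay above every shSCR/L-G6pc-/- library, the highest of which was at 0.977 CPM. In the fit without the filter Mx1 had a log2 fold change of 3.43 with shChREBP in L-G6pc-/- livers (SE 0.66, adjusted p = 0.000444) and 2.09 in shChREBP/L-G6pc-/- against shSCR/L-G6pc+/+ livers (SE 0.53, adjusted p = 0.00807). Of the 3' windows of Oas1a 56.1% also occur in Oas1g, and of those of Oas1g 30.2% occur in Oas1a, so such tags may belong to either gene. Oas1a and Oas1g had 62 and 24 tags in shChREBP/L-G6pc-/-, 29 and 11 in shSCR/L-G6pc-/-, 27 and 8 in shChREBP/L-G6pc+/+ and 21 and 13 in shSCR/L-G6pc+/+ libraries.

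The immunity-related GTPases and guanylate-binding proteins attack the vacuoles of intracellular pathogens and are known as targets of interferon gamma. Irgm1 differed with shChREBP in L-G6pc+/+ livers, at 8.05, 12.1 and 17.4 CPM in shChREBP/L-G6pc+/+ against 4.62, 6.84 and 9.08 CPM in shSCR/L-G6pc+/+ livers. Its log2 fold change there was 0.83 (SE 0.21, adjusted p = 0.0151), with 7 of 8 libraries above the highest shSCR/L-G6pc+/+ library. In L-G6pc-/- livers it was 0.33 (SE 0.19, adjusted p = 0.328), at 8.12, 10.3 and 20.7 CPM with shChREBP against 6.02, 10.01 and 12.8 CPM with shSCR. Igtp had medians of 47.0, 30.6, 37.7 and 29.1 CPM in L-G6pc-/- livers with shChREBP and with shSCR and in L-G6pc+/+ livers with shChREBP and with shSCR and was called in shChREBP/L-G6pc-/- against shSCR/L-G6pc+/+ livers (0.89, SE 0.21, adjusted p = 0.00319), with 0.62 without the set-apart libraries (adjusted p = 0.158). It overlaps Irgm2 on the same strand (0.58 in that comparison, adjusted p = 0.0298, lost without s1, s5, s6, s8, s25, s26 or s30, adjusted p up to 0.0688), so tags in the overlap may belong to either gene. Iigp1 was at 607, 738 and 924 CPM in shChREBP/L-G6pc-/- against 499.97, 565 and 668 CPM in shSCR/L-G6pc-/- livers, and 8 of 9 libraries lay above the shSCR/L-G6pc-/- range. This small difference of 0.39 (SE 0.10, adjusted p = 0.0136) was 0.45 without s29, s30, s32 and s33 (adjusted p = 0.0647). Ifi47 was called nowhere, and Tgtp1 had 8, 3, 2 and 1 tags in the libraries of L-G6pc-/- livers with shChREBP and with shSCR and of L-G6pc+/+ livers with shChREBP and with shSCR.

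Gbp3 differed by genotype. It was at 16.6, 37.8 and 53.4 CPM in shChREBP/L-G6pc-/- and 16.2, 27.5 and 37.3 CPM in shSCR/L-G6pc-/- livers, against 8.11, 11.1 and 28.8 CPM in shChREBP/L-G6pc+/+ and 5.05, 14.2 and 20.03 CPM in shSCR/L-G6pc+/+ livers. Its difference between shSCR/L-G6pc-/- and shSCR/L-G6pc+/+ livers was 0.996 on the log2 scale (SE 0.26, adjusted p = 0.0203), with 6 of 8 libraries above the shSCR/L-G6pc+/+ range, and between shChREBP/L-G6pc-/- and shChREBP/L-G6pc+/+ livers 1.25 (SE 0.25, adjusted p = 0.000843). For shChREBP against shSCR it was 0.42 in L-G6pc-/- and 0.17 in L-G6pc+/+ livers (adjusted p = 0.285 and 0.767). These values held without s29, s30, s32 and s33, where shChREBP/L-G6pc-/- against shChREBP/L-G6pc+/+ gave 1.18 (adjusted p = 0.00728). Gbp2 and Gbp7 were called nowhere. Gbp6, which shares 77.8% of its 3' windows with other genes, had 49, 30, 22 and 21 tags in the libraries of L-G6pc-/- livers with shChREBP and with shSCR and of L-G6pc+/+ livers with shChREBP and with shSCR.

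Cxcl10, the chemokine that draws T cells and NK cells through CXCR3, had the largest log2 fold change of the 46 tested members with shChREBP in L-G6pc-/- livers. Its level was 3.42, 16.5 and 27.6 CPM in shChREBP/L-G6pc-/- against 1.998, 4.74 and 8.79 CPM in shSCR/L-G6pc-/- livers, and 7 of 9 libraries lay above the highest shSCR/L-G6pc-/- library, s31 being the lowest. In L-G6pc+/+ livers it was at 2.87, 6.77 and 10.3 CPM with shChREBP against 2.98, 5.41 and 7.27 CPM with shSCR. The log2 fold changes were 1.57 (SE 0.30, adjusted p = 0.000832) and 0.35 (SE 0.33, adjusted p = 0.583), and their difference of 1.22 was not called (adjusted p = 0.26). The first was 1.32 without the set-apart libraries and stayed called (adjusted p = 0.0237). The antigen-processing members had small log2 fold changes with shChREBP in L-G6pc-/- livers, with 0.22 for the peptide transporter gene Tap1, 0.27 for the immunoproteasome gene Psmb9 and 0.04 for Psmb8. Tap1 and Psmb9 were called in shChREBP/L-G6pc-/- against shSCR/L-G6pc+/+ livers (0.59, adjusted p = 0.0217, and 0.49, adjusted p = 0.018), and Tap1 lost its call without s6, s7, s30 or s32 (adjusted p up to 0.0529). They overlap on opposite strands.

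Of the nuclear body and ADP-ribosylation genes, Sp100 was called and Parp9 and Parp14 were not. Sp100 was at 29.8, 41.1 and 64.2 CPM in shChREBP/L-G6pc-/- against 17.3, 28.1 and 39.4 CPM in shSCR/L-G6pc-/- livers (0.62, SE 0.18, adjusted p = 0.0237), and 6 of 9 libraries lay above the shSCR/L-G6pc-/- range. The call was lost without s21, s30 or s32 (adjusted p up to 0.061), and the value was 0.42 without the set-apart libraries (adjusted p = 0.375).

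The remaining members, grouped as other interferon-induced genes, were called with shChREBP in L-G6pc-/- livers for 4 of 5. Ifi44 was at 21.01, 41.2 and 82.6 CPM in shChREBP/L-G6pc-/- against 11.4, 14.6 and 36.6 CPM in shSCR/L-G6pc-/- livers, and at 8.99, 14.9 and 26.8 CPM in shChREBP/L-G6pc+/+ against 6.32, 13.0 and 18.0 CPM in shSCR/L-G6pc+/+ livers. Its log2 fold changes with shChREBP were 1.32 (SE 0.26, adjusted p = 0.000979) and 0.38 (SE 0.29, adjusted p = 0.477), the first being 0.90 without the set-apart libraries (adjusted p = 0.0868). Lgals3bp, a secreted galectin-binding glycoprotein, was called in 5 of 6 comparisons, the most of any member. It was at 53.1, 69.5 and 155 CPM in shChREBP/L-G6pc-/-, 37.7, 48.6 and 77.8 CPM in shSCR/L-G6pc-/-, 41.9, 56.5 and 65.9 CPM in shChREBP/L-G6pc+/+ and 26.98, 32.1 and 37.8 CPM in shSCR/L-G6pc+/+ livers. Every shChREBP/L-G6pc+/+ library lay above every shSCR/L-G6pc+/+ library. The values with shChREBP were 0.67 (SE 0.17, adjusted p = 0.012) in L-G6pc-/- and 0.75 (SE 0.19, adjusted p = 0.0141) in L-G6pc+/+ livers, and 0.73 (SE 0.19, adjusted p = 0.0188) between shSCR/L-G6pc-/- and shSCR/L-G6pc+/+ livers. The last was lost without s20 (adjusted p = 0.0611), and the first was 0.21 without s29, s30, s32 and s33 (adjusted p = 0.642).

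Ifi27, a mitochondrial and nuclear membrane protein gene, differed by genotype under shChREBP. It was at 309, 475 and 616 CPM in shChREBP/L-G6pc-/- against 169, 211 and 273 CPM in shChREBP/L-G6pc+/+ livers, with no overlap, and the log2 fold change was 1.08 (SE 0.16, adjusted p = 2.41e-05). It held without s29, s30, s32 and s33 (1.17, adjusted p = 6.62e-05). Between shSCR/L-G6pc-/- and shSCR/L-G6pc+/+ livers it was 0.50 (SE 0.16, adjusted p = 0.0946). Xaf1, a pro-apoptotic gene, was at 16.2, 19.8 and 40.1 CPM in shChREBP/L-G6pc-/- against 8.66, 13.0 and 22.8 CPM in shSCR/L-G6pc-/- livers (0.68, SE 0.21, adjusted p = 0.0392), a call lost without s17, s18, s21, s22, s23, s24, s29, s30 or s32 (adjusted p up to 0.124) and at 0.40 without the set-apart libraries (adjusted p = 0.52). Ifi35 was at 53.0, 70.2 and 103 CPM against 40.0, 56.6 and 66.0 CPM in the same groups (0.42, SE 0.12, adjusted p = 0.0256), lost without s21, s22, s23, s29 or s32 (adjusted p up to 0.0765) and at 0.21 without the set-apart libraries (adjusted p = 0.553).

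**Figure D4:**
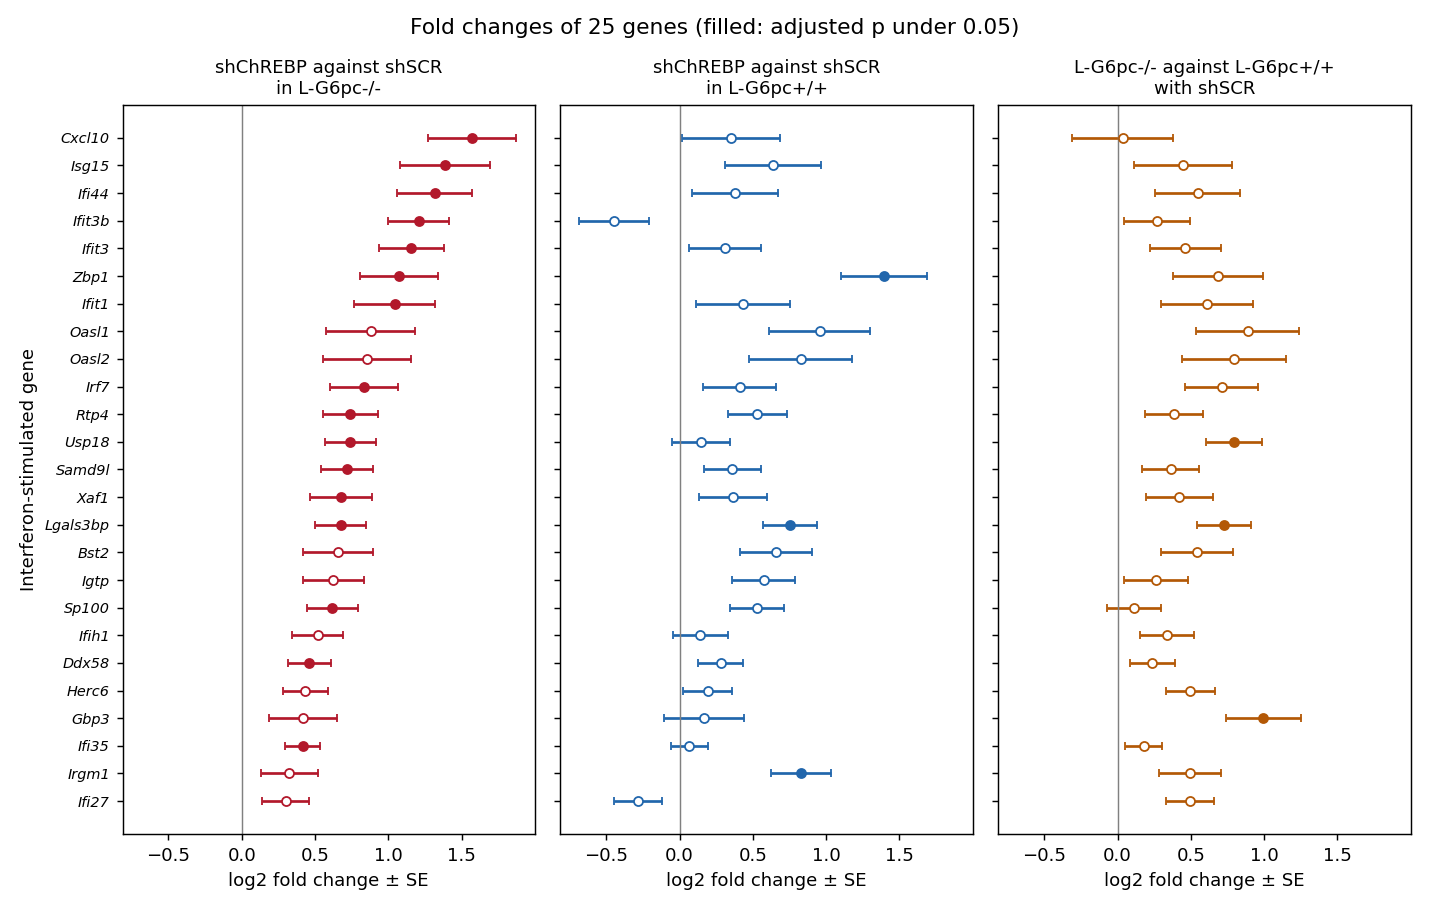
Log2 fold change ± SE of the 25 members with the smallest adjusted p, for shChREBP against shSCR in L-G6pc-/- livers (left), the same in L-G6pc+/+ livers (middle) and L-G6pc-/- against L-G6pc+/+ livers with shSCR (right). Filled points had an adjusted p under 0.05, and Ifit3b stands out with 1.21 on the left and -0.45 in the middle.

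The members deviated together from library to library. The median over the 46 members of the difference from the shSCR/L-G6pc+/+ mean ran from 0.21 to 1.25 in shChREBP/L-G6pc-/- (median 0.81), from -0.04 to 0.81 in shSCR/L-G6pc-/- (median 0.16), from -0.02 to 0.80 in shChREBP/L-G6pc+/+ (median 0.28) and from -0.23 to 0.22 in shSCR/L-G6pc+/+ libraries (median 0.02), on the log2 scale. In shChREBP/L-G6pc-/-, s32, s30 and s29 were the highest library for 18, 13 and 6 members, and s31 was the lowest for 29. Such counts were not made over all genes. On the first principal component of all tested genes s32, s30 and s29 also had the highest scores (28.01, 24.5 and 15.9), with s31 at -18.6, so this pattern is not shown to be particular to the members. The library s33, which also stood apart over all genes, was highest for none and had a median member deviation of -0.11 from its group's median. In shSCR/L-G6pc-/-, s20 was highest for 18 and s18 for 13 members, and in shChREBP/L-G6pc+/+ s13 was highest for 24. Without s13 the members' median for shChREBP in L-G6pc+/+ livers was 0.20.

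Summed hepatocyte and macrophage markers also differed among these libraries. In shSCR/L-G6pc-/- livers s20 and s18 held 24167 and 27138 CPM of hepatocyte markers, with a group median of 24357 CPM. Their Kupffer cell and macrophage markers summed to 2373 and 1357 CPM, with a group median of 2017 CPM. Summed hepatocyte markers were at 16220 to 25165 CPM in shChREBP/L-G6pc-/- libraries, 21488 to 28868 CPM in shSCR/L-G6pc-/-, 23170 to 36276 CPM in shChREBP/L-G6pc+/+ and 30034 to 33937 CPM in shSCR/L-G6pc+/+ libraries. The lowest were s29, s30 and s32 (16220 to 16721 CPM) and the highest of its group was s31 (25165 CPM). Summed Kupffer cell and macrophage markers were at 1782 to 2673 CPM in shChREBP/L-G6pc-/-, 1119 to 2614 CPM in shSCR/L-G6pc-/-, 1222 to 3120 CPM in shChREBP/L-G6pc+/+ and 1222 to 2045 CPM in shSCR/L-G6pc+/+ libraries, the highest being s13. This sum leans on a few genes. In shChREBP/L-G6pc-/- livers its median was 2237 CPM and that of Cd5l alone was 1010 CPM. Marco had a lower median in shChREBP/L-G6pc-/- (208 CPM) than in shSCR/L-G6pc-/- livers (282 CPM). With shChREBP in L-G6pc-/- livers 3 of 14 tested macrophage markers were higher (C1qa, 0.58, adjusted p = 0.00645, Clec4f, 0.54, adjusted p = 0.0123, and C1qc, 0.49, adjusted p = 0.0288) and 3 of 12 hepatocyte markers were lower, Alb fell by 0.52 (adjusted p = 0.0041), Ttr by 0.40 (adjusted p = 0.0136) and Serpina1a by 0.38 (adjusted p = 0.0281). The median log2 fold change of the 14 macrophage markers was 0.30, and 0.08 without the set-apart libraries. Of 10 endothelial markers 1 was higher (Pecam1, 0.44, adjusted p = 0.0339), and of 10 stellate cell markers none, with a median of 0.31. Among all 10179 genes 339 were called higher and 431 lower in that comparison. No marker of these lists was called in that comparison without the set-apart libraries. T and NK cell markers summed to 8.98 to 18.7 CPM in shChREBP/L-G6pc-/- against 6.43 to 20.04 CPM in shSCR/L-G6pc-/- libraries, and dendritic cell markers to 31.1 to 48.6 CPM against 25.9 to 46.8 CPM, and the T cell gene Cd3e had 7 and 5 tags in all in these groups. In bulk liver, fewer cells of a type and less RNA per cell cannot be told apart, and the part of these markers in the members' levels was not tested.

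**Figure D5:**
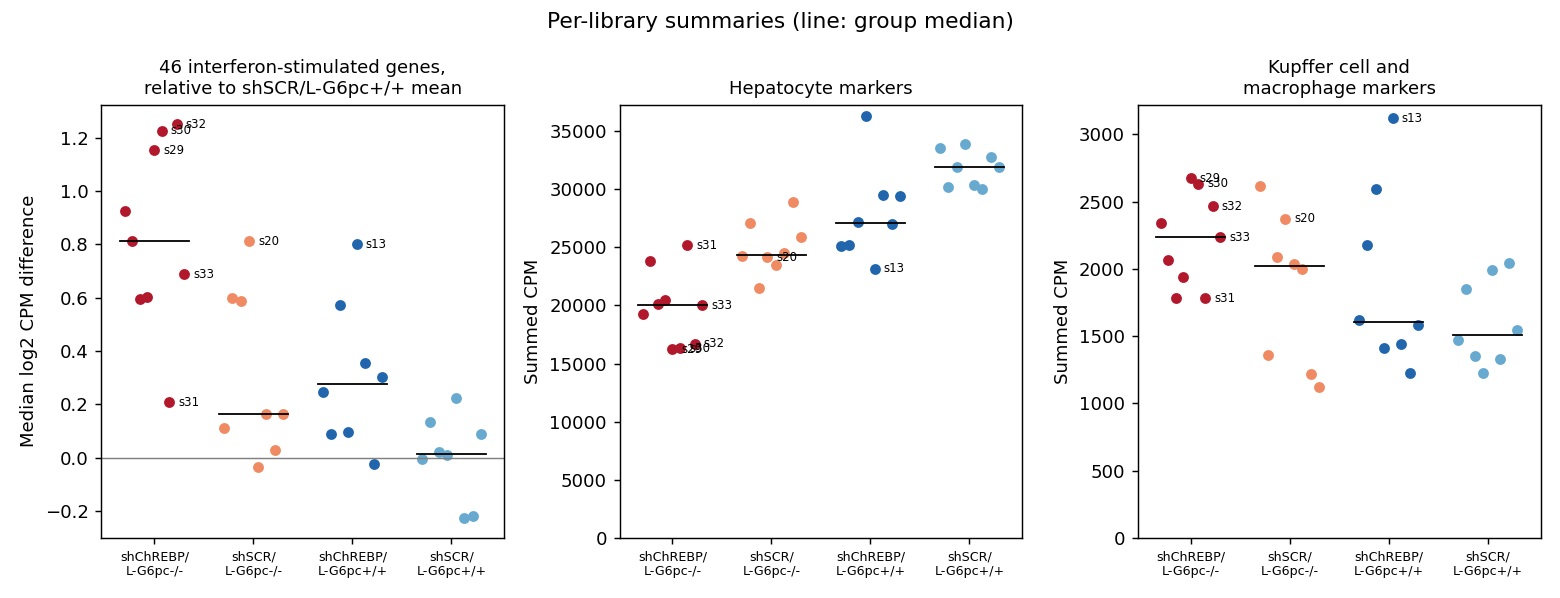
Per-library summaries by group, with the group median as a line. From left to right, the median log2 CPM difference of the 46 members from the shSCR/L-G6pc+/+ mean, the summed CPM of hepatocyte markers and the summed CPM of Kupffer cell and macrophage markers. The libraries s29, s30 and s32 are the highest of all in the left panel (1.15 to 1.25) and the lowest in the middle one (16220 to 16721 CPM).

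Upstream of the members, few genes were called. Of 21 interferon genes listed as ligands, Ifng had 5 tags and Ifnk 1 tag over the 33 libraries. The other 19 were looked up by name and not found in the count table, so no level can be given for them. None of 11 tested genes of receptors and JAK-STAT signalling was called with shChREBP in L-G6pc-/- livers (median 0.32). Among 9 tested genes of the IRF family and its co-regulators, Irf8, a factor of myeloid cells, was higher (0.62, SE 0.17, adjusted p = 0.0221), with 0.27 without the set-apart libraries (adjusted p = 0.628). Of 7 negative regulators Ptpn2, a phosphatase that acts on JAKs and STATs, was lower (fell by 0.61, SE 0.18, adjusted p = 0.0276), with -0.53 without them (adjusted p = 0.272). Beside 3.33% of all genes called higher in that comparison, 8 of 55 further interferon-stimulated genes outside the 51 were higher and none lower (median 0.37). Gm12250 (1.32, adjusted p = 0.0138), Parp12 (0.51, adjusted p = 0.0138), Ifi204 (0.71, adjusted p = 0.0199) and Apol9b (0.64, adjusted p = 0.023) had the smallest p among them. In shChREBP/L-G6pc-/- against shSCR/L-G6pc+/+ livers 30 of the 55 were higher, in shChREBP/L-G6pc-/- against shChREBP/L-G6pc+/+ 13, in shSCR/L-G6pc-/- against shSCR/L-G6pc+/+ 6 and in shChREBP/L-G6pc+/+ against shSCR/L-G6pc+/+ 3. The shares of all genes called higher were 6.87%, 6.14%, 2.20% and 2.16% in that order. None of these further genes was called with shChREBP in L-G6pc-/- livers without the set-apart libraries, and 14 were then called in shChREBP/L-G6pc-/- against shSCR/L-G6pc+/+ livers. In the latter comparison 175 of all 10399 genes were then called higher.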

How the data were processed

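RNA was measured by 3' QuantSeq, single read, in 33 liver libraries of 4 groups taken from the sample labels. Per the study's methods and the labels, the authors used HISAT for alignment to GRCm38 (Ensembl release 82), SAMtools for sorting and HTSeq for counting per gene, without stated versions, and deposited raw counts. The authors also deposited a normalized signal made with limma's voom, which was checked to be (count + 0.5) divided by 1 number per library, so its log2 was taken. Whether tags were counted by strand is not given in the sources used here. The labels do not say that each library is a different mouse, so n counts libraries and p-values measure the spread between them, which may be technical.

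Identifiers were named from GENCODE M21 (25817 of 25988). The counts were fitted with edgeR 4.0.16 under R 4.3.3: filterByExpr (minimum count 10, minimum total 15), TMM scaling, and a quasi-likelihood fit of all 4 groups, with Benjamini-Hochberg adjustment over 10179 genes. CPM are TMM-scaled, and log2 CPM used a prior count of 2. Alternatives used limma 3.58.1 and DESeq2 1.42.0, other scalings and filters, only the compared groups, and each library left out; fits without s29, s30, s32 and s33 were chosen after seeing the data. The members, lists and tests were chosen with earlier results of these data known. Members called in at least 1 of 6 comparisons were named in full, up to 25 by smallest adjusted p, and others by ranges or, after their values were seen, singly. From other lists at most 4 genes called with shChREBP in L-G6pc-/- livers were named. Promoters (RefSeq, GRCm38.p6) were matched by symbol for 39 of 51 members.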

Additional observations from a re-analysis of the deposited data

Results flagged for a closer look

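Among 100 checks of the 25 members in 4 groups, a single library lay far from the rest of its group 8 times, and chance flags about 1 in 20. In shChREBP/L-G6pc+/+ livers s13 was highest for Isg15 (124 CPM, next 48.6), Sp100 (70.6 CPM, next 46.5) and Ddx58 (49.96 CPM, next 36.3). In shSCR/L-G6pc-/- livers s18 was highest for Ifit3b (33.7 CPM, next 21.8) and s20 for Ifi44 (36.6 CPM, next 21.04). In shChREBP/L-G6pc-/- livers s30 was highest for Xaf1 (40.1 CPM, next 27.9). In shSCR/L-G6pc+/+ livers s5 was highest for Samd9l (12.2 CPM, next 9.54) and s8 for Ddx58 (43.6 CPM, next 31.2). The shChREBP effect on Ifit3b differed between L-G6pc-/- and L-G6pc+/+ livers by 1.65 on the log2 scale, by the test of the difference itself (edgeR, adjusted p = 0.0181).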

How the results depend on the processing

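No paired analysis was possible because the groups share no replicate numbers. Under DESeq2 size factors in edgeR, library size only, no filter, the DESeq2 test, limma-voom, and limma fitted to the deposited normalized values, the count of members called stayed within 1.5 times of the reported one in each comparison, and no member was called lower. With only the compared groups, 8 members were called for shChREBP in L-G6pc+/+ livers instead of 4. Without s29, s30, s32 and s33, 2 members instead of 18 were called for shChREBP in L-G6pc-/- livers, 7 instead of 4 for shChREBP in L-G6pc+/+ livers, 10 instead of 18 in shChREBP/L-G6pc-/- against shChREBP/L-G6pc+/+ and 18 instead of 36 in shChREBP/L-G6pc-/- against shSCR/L-G6pc+/+ livers, with 5 libraries left in the group. Over all genes the calls in that order were 106 instead of 770, 738 instead of 549, 913 instead of 1124 and 321 instead of 1347. Leaving out each library in turn gave 12 to 24, 3 to 6, 15 to 26 and 32 to 40 calls in these comparisons, 2 to 5 in shSCR/L-G6pc-/- against shSCR/L-G6pc+/+ (5 without s23), and 0 (without s5) to 1 for the difference between genotypes. Of 80 calls of single members, none changed direction under any alternative, 80 stayed called under library size only, 79 with the DESeq2 test, 78 with limma on the deposited values, 78 without a filter and 38 without s29, s30, s32 and s33. At 1497843 to 3546852 tags a library, 5 members were below the filter. Without a filter 20 members were called for shChREBP in L-G6pc-/- livers, 17 of them among the 18, with Mx1, Igtp and Oasl1 gained and Ddx58 lost, and in shChREBP/L-G6pc-/- against shSCR/L-G6pc+/+ livers Mx1 was gained and Irf9 lost.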
